A study of Mus musculus with 28 samples.

Results

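The genes described here encode subunits of the proteasome and proteins that attach, trim or remove ubiquitin, as measured in the midbrain of mice carrying tumour cells. They were chosen by symbol, from the platform annotation of the arrays used: proteasome genes (Psma to Psmg with a number), ubiquitin-conjugating enzymes (Ube2), ubiquitin-specific proteases, which are deubiquitinases (Usp with a number), and cullins (Cul with a number). The choice gave 68 genes of the 8726 named genes, measured by 70 probes. Of these, 51 probes for 49 genes were bright enough and had enough replicates to be tested: 22 probes for proteasome genes, 12 for conjugating enzymes, 12 for deubiquitinases and 5 for cullins. The symbols caught 2 genes that do other work. Psmc3ip encodes a factor of meiotic recombination that was named for binding the proteasome ATPase Psmc3, and Ube2cbp encodes a ubiquitin ligase named for binding a conjugating enzyme.

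Tumour-bearing mice were male Balb/c animals of 8 weeks given an injection under the skin of 1000000 CT-26.WT cells, which are a line from a mouse colon carcinoma, in 300 µl of PBS. PBS mice were male Balb/c animals of the same age given 300 µl of PBS alone. Both were decapitated 18, 72 or 192 h later and midbrain RNA was taken with TRIzol. Each array held tumour and PBS RNA together, one in Cy3 and the other in Cy5. A value is therefore a log2 ratio of tumour over PBS, above 0 where the signal was higher in tumour-bearing mice. The tumour cells were of 1 line, no transgene is named for either group, and it is not stated if single or pooled animals made up a biological replicate.

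The values come from 21 arrays of 11 biological replicates, 5 at 18 h, 2 at 72 h (numbered 3 and 4) and 4 at 192 h. Replicates 1 and 2, at 18 and 192 h, were polyA RNA in 1 dye orientation each, with tumour RNA in Cy5 for replicate 1 and in Cy3 for replicate 2. All other replicates were total RNA on a pair of arrays with the dyes exchanged. Between 25.7% and 97.9% of the spots of an array had a signal in both channels. Array 447, one of the pair of 72 h replicate 3, had a Spearman rho of -0.014 between its channels, against 0.59 to 0.98 on the other 20 arrays. The 9 markers of dopaminergic neurons on the arrays had values on 12 to 21 arrays, and the 8 markers of oligodendrocytes also on 12 to 21. Markers of the cerebellum had values on 12 to 20 arrays and those of the hippocampus and cortex on 5 to 20. The number of arrays with a value therefore does not tell brain regions apart.

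Ubiquitin is activated by an E1 enzyme, passed to an E2 conjugating enzyme and attached to a target with the help of an E3 ligase, of which the cullin complexes form a large family. Chains of ubiquitin mark proteins for the proteasome, a barrel of alpha and beta rings capped by a regulatory particle of ATPases and non-ATPase subunits that unfolds and admits them. Deubiquitinases cut ubiquitin off again. Neurons rely on the pathway for synaptic turnover and for clearing misfolded proteins, and inflammation is known to exchange some beta subunits for immunoproteasome forms. The genes of those forms (Psmb8, Psmb9 and Psmb10) and of the interferon-induced activators Psme1 and Psme2 are not analysed here.

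No member passed the test at any time. At 18 h, 0 of 51 member probes had an adjusted p under 0.05, by limma with Benjamini-Hochberg adjustment over all 4516 probes tested, where 0% of all probes passed. At an unadjusted p under 0.05 there were 2 members of 51, with 5.36% of all probes below that value. At 72 h, 0 of 51 passed, with 0% of all probes, and 2 had an unadjusted p under 0.05, with 8.68% of all probes. At 192 h, 0 of 51 passed, with 0% of all probes, and 0 had an unadjusted p under 0.05, with 0.996% of all probes. Fewer cells of a type and less RNA per cell cannot be told apart in these bulk samples, and p-values measure the spread between the labelled biological replicates.

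The median log2 ratio of the 51 member probes was -0.021 at 18 h, against 0.00089 for all 4516 probes. It was -0.043 at 72 h, against 0.036, and -0.029 at 192 h, against -0.0036. At 18 h, 22 member probes (43.1%) lay above 0, against 50.1% of all probes. At 72 h it was 21 (41.2%), against 57.3%, and at 192 h it was 21 again, against 48.8%. For the mean of the times, 20 members (39.2%) lay above 0, against 54.3% of all probes. With median centring in place of the intensity-dependent normalization, the member median at 18 h turned to 0.046. The median log2 ratio of the members at 72 h turned to 0.0079 without array 447 and to 0.020 without replicate 3. The median log2 ratio of the members at 192 h turned to 0.00017 with total RNA replicates alone and to 0.0056 without replicate 4, so the sign of none of these medians held in every setting. Of the 35 member probes named by the rule, 9 had another sign at 72 h without array 447, and 7 others were smaller and 6 larger by over 1.5 times. Without that array, replicate 3 of 72 h holds a single dye orientation, so the fitted values at 72 h then include a dye correction.

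The intervals bound how large a change could have been. The median 95% interval of a member reached 0.24 to each side at 18 h, 0.35 to each side with the 2 replicates of 72 h and 0.25 at 192 h, without adjustment for the number of probes. A half-width of 0.24 on the log2 scale is a factor of 1.18. The interval lay inside -1 to 1 for 50 of 51 probes at both 18 and 192 h, and for 49 at 72 h. It lay inside -0.5 to 0.5 for 43 probes at 18 h (84.3%, against 77.1% of all probes), for 26 at 72 h (51%, against 36.8%) and for 47 at 192 h (92.2%, against 83.7%). The probes with an interval past 1 were Ube2e1 at all 3 times and Psmd7 at 72 h. Of the 533 single replicate values of the members, 92.7% lay within 0.5 of 0, against 90.1% of the values of all tested probes, and 10 were further than 1 from 0.

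**Figure D1:**
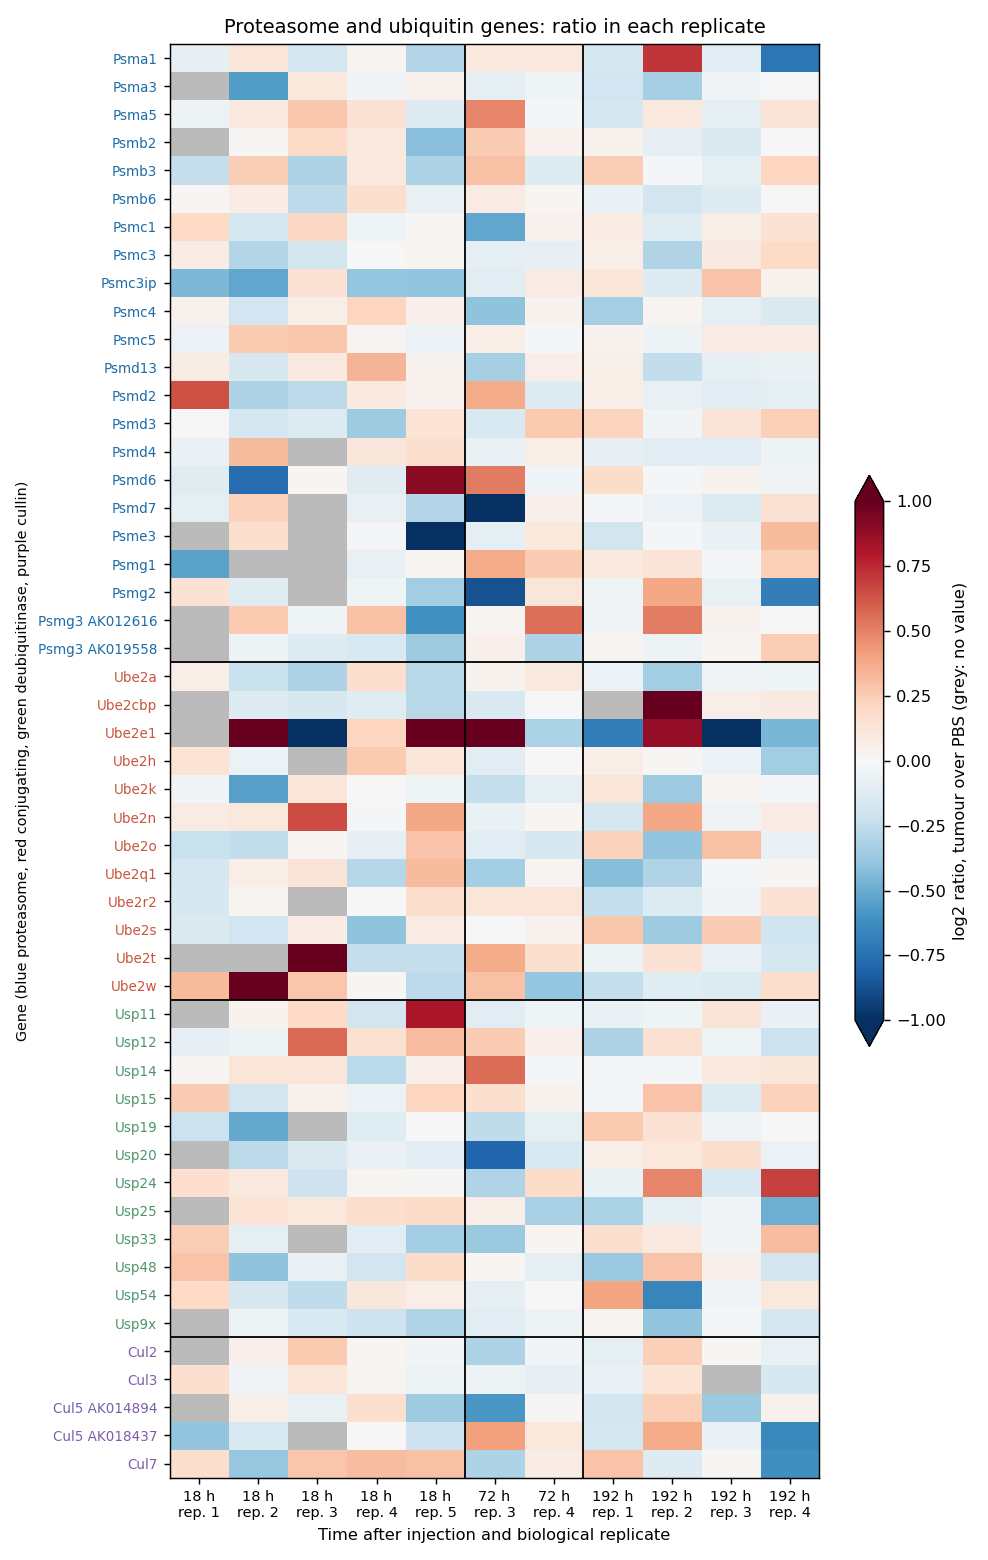
Log2 ratio of tumour over PBS for the 51 tested member probes (rows, by group) in each of the 11 biological replicates (columns, by time), with grey for no value and colours saturating at 1 in either direction. The strongest colours sit in single cells, such as Psmd7 in 72 h replicate 3 and Ube2cbp in 192 h replicate 2, and in the row of Ube2e1.

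The plot of every replicate value shows few rows of a single colour. Of the 51 member probes, 6 had 1 sign in every replicate at 18 h (11.8%, against 10.4% of all probes). At 192 h the count was 4 (7.84%, against 9.52%), and at 72 h, with only 2 replicates, it was 23 (45.1%, against 52.4%). No member had 1 sign in every replicate of all 3 times, which 0.133% of all probes had.

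The barrel of the proteasome was measured by 6 tested genes. The alpha ring genes Psma1, Psma3 and Psma5 had fitted values between -0.078 and 0.065 at 18 h. Their values lay between -0.065 and 0.24 at 72 h and between -0.14 and -0.012 at 192 h. Psma3 gave -0.56, 0.11, -0.029 and 0.042 in 18 h replicates 2 to 5, -0.089 and -0.040 at 72 h, and -0.19, -0.33, -0.025 and 0.0050 at 192 h. Its values straddled 0 at 18 and 192 h, and its fitted value at 192 h was -0.14 (SE 0.11, n = 4, adjusted p = 1.00). Psma1 spread most at 192 h, with -0.17, 0.72, -0.12 and -0.73 in replicates 1 to 4. Psma4, Psma6 and the testis form Psma8 were too dim and had too few values to be tested.

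Psmb6, a catalytic beta subunit with caspase-like activity, had a value on every array and was among the steadiest members by its replicate means. It gave 0.0098, 0.075, -0.26, 0.17 and -0.071 at 18 h, 0.079 and 0.021 at 72 h, and -0.066, -0.18, -0.13 and 0.00047 at 192 h. These values lie on both sides of 0, and their residual standard deviation (SD) of 0.13 was larger than that of only 7.31% of all probes. The fitted values were -0.016 (SE 0.084, n = 5) at 18 h, 0.050 (SE 0.13, n = 2) at 72 h and -0.094 (SE 0.094, n = 4) at 192 h, with adjusted p-values of 0.997, 0.947 and 1.00. The other tested beta subunits, Psmb2 and Psmb3, had fitted values from -0.10 to 0.15 over the 3 times.

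Proteasome genes are known to be switched on together by the transcription factor Nfe2l1 through antioxidant response elements when proteasome activity falls. The stretch of 250 bases before each start was therefore searched on both strands for the letters TGACNNNGC, the core of that element, with N for any base. RefSeq promoter windows (GRCm38.p6) were found for 50 of the 66 members that are not caught by their symbol alone. The letters occurred in the windows of 1 of 19 proteasome genes (5.26%) and of 5 of all 50 members, against 11.5% of all 27025 genes with a window. The stretches around the matches of tested members are shown because these are the members whose ratios can be set beside that sequence, with the match in capitals and each read 5′ to 3′ on the strand of the gene.
Psmb6, chr11:70525330-70525356, plus strand: gaggcggactaaagagagTGACGGAGC
Cul5, chr9:53667690-53667734, minus strand: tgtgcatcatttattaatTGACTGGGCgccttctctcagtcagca
Usp20, chr2:30982236-30982278, plus strand: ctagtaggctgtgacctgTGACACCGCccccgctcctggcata
Usp25, chr16:77013819-77013853, plus strand: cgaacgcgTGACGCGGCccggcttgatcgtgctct

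The match in Psmb6 starts 9 bases before the gene's start and that in Usp20 25 bases before it. In Cul5 it starts 209 bases and in Usp25 242 bases before the start. For the 14 tested proteasome genes whose windows lack the letters, measured by 15 probes, the median log2 ratio was -0.017 at 18 h and 0.027 at 72 h, and at 192 h it was 0.010. Psmb6 is the only tested proteasome gene with a match, so no test of matched against unmatched promoters was made, and a match describes the sequence only.

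The regulatory particle was measured by 10 tested genes. Of the ATPases, which unfold substrates, Psmc1, Psmc3, Psmc4 and Psmc5 had fitted values from -0.074 to 0.089 at 18 h and from -0.24 to 0.027 at 72 h. At 192 h they ran from -0.14 to 0.042. Psmc1 gave 0.20, -0.18, 0.21, -0.043 and 0.011 at 18 h, -0.52 and 0.046 at 72 h, and 0.083, -0.12, 0.061 and 0.14 at 192 h. Its value furthest from 0 came from 72 h replicate 3, which holds array 447. Its fitted value at 72 h was -0.24 (SE 0.15, adjusted p = 0.664), and without that array it was -0.069 (adjusted p = 0.993). Psmc4 had its lowest values, -0.40 and -0.33, in 72 h replicate 3 and 192 h replicate 1. Its fitted -0.18 at 72 h turned to 0.065 without array 447, and its fitted value at 192 h was -0.14 (SE 0.11, n = 4, adjusted p = 1.00).

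Among the non-ATPase subunits, Psmd7, a lid subunit that pairs with the deubiquitinating subunit Psmd14, had the smallest p of the proteasome group at 72 h. It gave -0.088, 0.23, -0.071 and -0.30 in 18 h replicates 1, 2, 4 and 5, -1.42 and 0.051 in 72 h replicates 3 and 4, and -0.021, -0.061, -0.14 and 0.16 at 192 h. The replicates at 72 h thus disagree, and one value stands far from all others of the gene. It rests on 1 array, with tumour RNA in Cy5, since array 447 had no value for Psmd7, although the fit counts the replicate as balanced for dye. In replicate 4 the arrays gave 0.57 with tumour RNA in Cy5 and -0.46 with it in Cy3. The fitted value was -0.69 (SE 0.27, n = 2, unadjusted p = 0.028, adjusted p = 0.554). Without replicate 4 it was -1.42 with an adjusted p of 0.00376, resting on that 1 array and assuming that it varies like the other replicates, and without replicate 3 it was 0.051.

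Psmd4, a ubiquitin receptor of the proteasome, had the smallest residual SD of the members, 0.095. It gave -0.067, 0.32, 0.11 and 0.16 in 18 h replicates 1, 2, 4 and 5, -0.070 and 0.063 at 72 h, and -0.081, -0.11, -0.11 and -0.047 at 192 h. In 72 h replicate 4 its arrays gave 0.44 with tumour RNA in Cy5 and -0.31 with it in Cy3. All 4 values at 192 h were below 0, at a fitted -0.085 (SE 0.090, adjusted p = 1.00). Psmd3, a scaffold of the lid, gave 0.23, -0.030, 0.13 and 0.24 at 192 h, a fitted 0.14 (SE 0.10, n = 4, adjusted p = 1.00). Psmd2, Psmd6 and Psmd13 had fitted values between -0.017 and 0.076 at 18 h, between -0.13 and 0.24 at 72 h and between -0.086 and 0.041 at 192 h. Psmd6 spread from -0.76 to 0.90 over the 18 h replicates.

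Of the activators and assembly factors, Psme3, which opens the barrel in the nucleus, had the lowest fitted value of any member at 18 h. It gave 0.16, -0.020 and -1.17 in replicates 2, 4 and 5, so the fitted -0.43 (SE 0.23, n = 3, adjusted p = 0.874) follows 1 replicate. The assembly chaperone Psmg1 gave -0.53, -0.071 and 0.022 in 18 h replicates 1, 4 and 5, 0.37 and 0.26 at 72 h, and 0.095, 0.13, -0.0098 and 0.24 at 192 h. Its fitted 0.31 at 72 h (SE 0.15, n = 2) had an adjusted p of 0.595. Replicate 3 of Psmg1 at 72 h was 0.11 on array 445 and 0.63 on array 447. Its partner Psmg2 gave -0.87 and 0.12 at 72 h, a fitted -0.37 (SE 0.26, n = 2, adjusted p = 0.693). The -0.87 rests on array 445 alone, with tumour RNA in Cy5, since array 447 had no value for Psmg2. The 2 probes of Psmg3, another assembly factor, had the same sign in 5 of the 10 replicates that both measured, with fitted values at 72 h of 0.29 and -0.13.

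Psmc3ip, the recombination factor caught by its symbol, had the smallest p of all members at 18 h. It gave -0.45, -0.52, 0.14, -0.38 and -0.39 at 18 h, -0.12 and 0.083 at 72 h, and 0.12, -0.13, 0.29 and 0.040 at 192 h. It was below 0 in 4 of 5 replicates at 18 h and on both sides of 0 later. The fitted value at 18 h was -0.32 (SE 0.11, n = 5, unadjusted p = 0.0109, adjusted p = 0.874). The F-test between times gave an adjusted p of 0.898, and the authors' deposited series matrix gave -0.17 for it at 18 h in the same fit, on a log scale whose base is not settled.

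**Figure D2:**
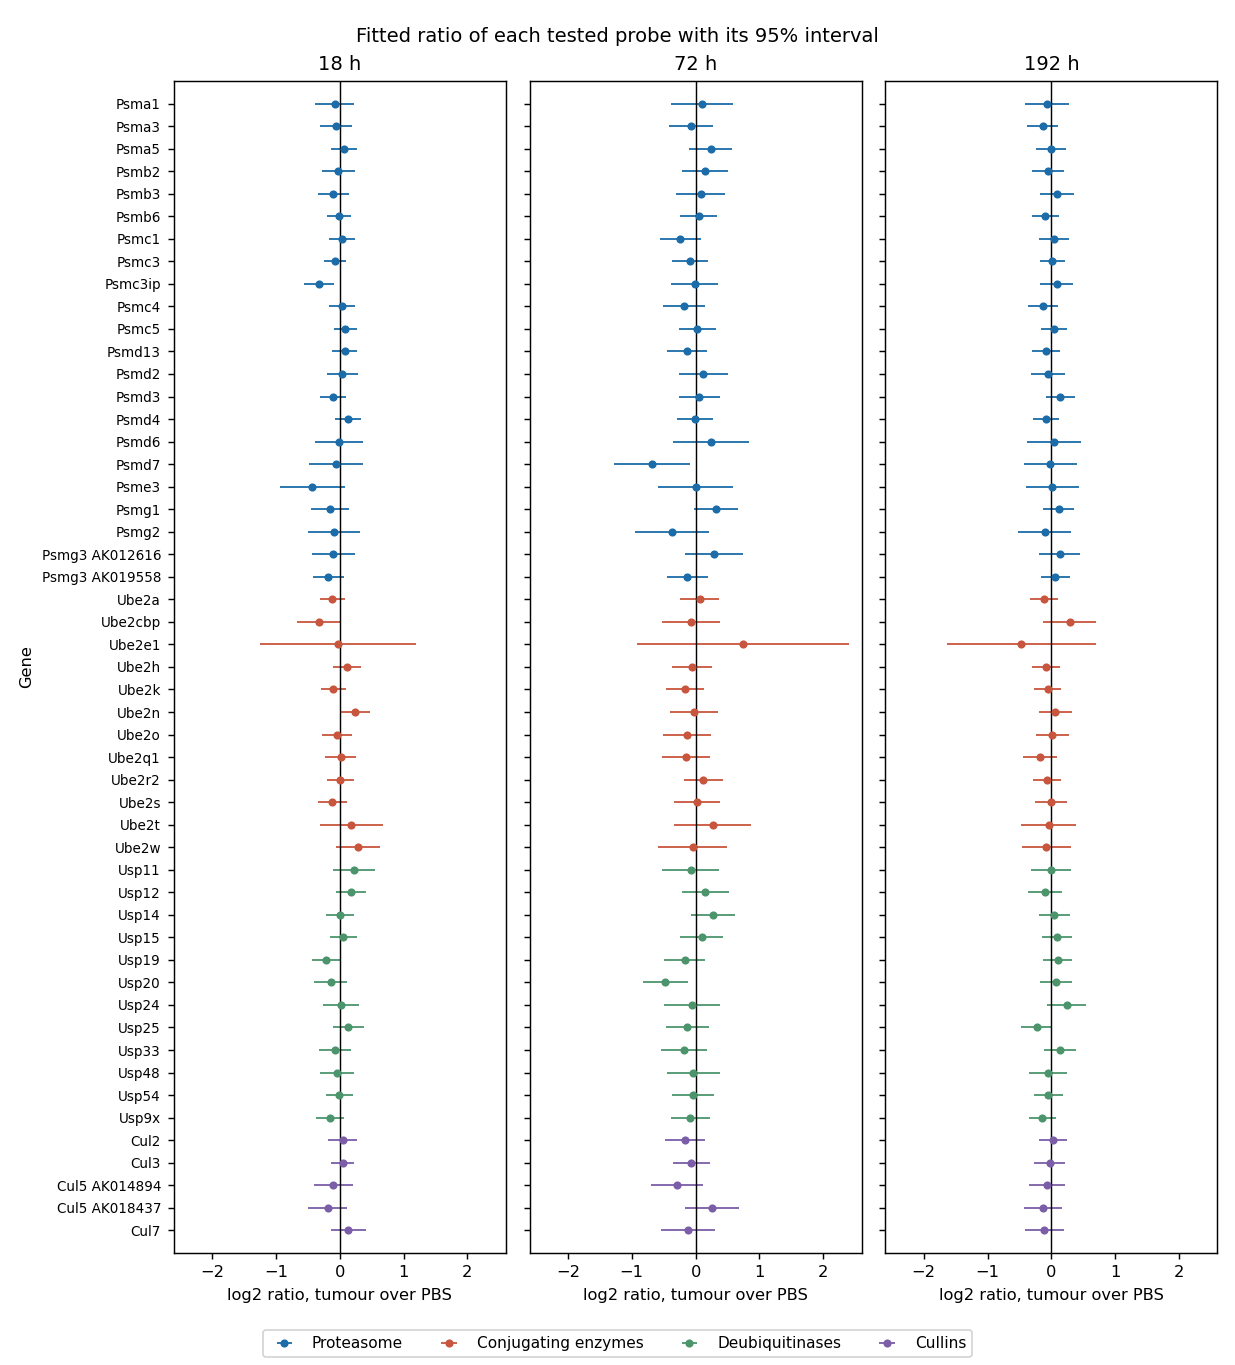
Fitted log2 ratio of tumour over PBS (points) with its unadjusted 95% interval (bars) for each of the 51 tested member probes at 18, 72 and 192 h, coloured by group. Most bars cross 0, the bars are widest at 72 h, and Ube2e1 has the widest bar of all at each time.

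Among conjugating enzymes, Ube2n, which builds Lys63-linked chains together with Ube2v partners, had the smallest p at 18 h. It gave 0.078, 0.11, 0.65, -0.022 and 0.39 at 18 h, -0.066 and 0.020 at 72 h, and -0.18, 0.38, -0.037 and 0.082 at 192 h. It was above 0 in 4 of 5 replicates at 18 h, with values on both sides later. The fitted value at 18 h was 0.24 (SE 0.11, n = 5, unadjusted p = 0.0473, adjusted p = 0.874). In 18 h replicate 3 the arrays gave -0.18 with tumour RNA in Cy5 and 1.49 with it in Cy3, and in replicate 5 they gave -0.34 and 1.11. The authors' deposited series matrix gave -0.0043 for Ube2n at 18 h, which differs from 0.24 by more than the SE. Its partner Ube2v2 had too few values at 72 h to be tested.

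Ube2e1, a conjugating enzyme of general use, had the largest spread of the members, with a residual SD of 1.39, larger than that of 99.3% of all probes. Its replicates gave 1.80, -2.26, 0.22 and 1.25 in 18 h replicates 2 to 5, 1.80 and -0.32 at 72 h, and -0.69, 0.88, -1.61 and -0.46 at 192 h. These values have no common sign at any time. By dye, on the 8 arrays with tumour RNA in Cy5 the ratio was below 0 every time, from -3.31 to -0.11, and on the 9 arrays with it in Cy3 it was above 0 every time, from 0.25 to 3.72. Such a split on every array was found for 1 of 51 members (1.96%) and for 0.686% of all probes. Its dye term in the fit, which is other than 0 only for the polyA replicates, was -1.13 (SE 0.64, unadjusted p = 0.105, adjusted p = 0.474). Replicate 3 at 18 h and at 192 h rests on 1 Cy5 array each, though the fit counts both as balanced. At 72 h the fitted value was 0.74 (SE 0.75, n = 2, adjusted p = 0.807), with -0.11 on array 445 and 3.72 on array 447. Without array 447 the fitted value was 0.25 (adjusted p = 0.993), but that includes a dye correction of replicate 3, then left with Cy5 only. The values left at 72 h, -0.11 and -0.32, were both below 0.

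Ube2k, which builds Lys48-linked chains and is abundant in brain, gave -0.027, -0.54, 0.12, 0.0024 and -0.046 at 18 h, -0.24 and -0.094 at 72 h, and 0.12, -0.37, 0.018 and -0.015 at 192 h. Its lowest value at each of 18 and 192 h came from replicate 2, in which tumour RNA was only in Cy3. Its 72 h replicate 3 was 0.13 on array 445 and -0.61 on array 447. Its fitted value was -0.17 at 72 h (SE 0.14, n = 2, adjusted p = 0.748), against -0.10 (adjusted p = 0.993) without array 447. The -0.10 includes a dye correction of replicate 3. The values left at 72 h, 0.13 on array 445 and -0.094 in replicate 4, lay on both sides of 0. The mean of Ube2k over the times was -0.11 (SE 0.063, adjusted p = 0.866). Ube2a, a mouse homologue of yeast Rad6, was below 0 in all 4 replicates at 192 h, at -0.058, -0.34, -0.035 and -0.045. Its fitted value there was -0.12 (SE 0.10, adjusted p = 1.00). The arrays of Ube2a split by dye in 192 h replicates 3 and 4. They gave 0.091 and 0.095 with tumour RNA in Cy5, and -0.16 and -0.19 with it in Cy3.

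Ube2w, which attaches ubiquitin to the amino end of proteins, gave 0.31, 1.08, 0.27, 0.013 and -0.26 at 18 h, a fitted 0.28 (SE 0.16, n = 5, adjusted p = 0.876). Ube2t, the conjugating enzyme of the Fanconi anaemia pathway, gave 1.03, -0.24 and -0.24 in 18 h replicates 3 to 5 and 0.37 and 0.16 at 72 h, a fitted 0.27 at 72 h (SE 0.27, n = 2, adjusted p = 0.815). Replicate 3 of Ube2t at 72 h was -0.041 on array 445 and 0.78 on array 447, and without array 447 the fitted value was 0.12 (adjusted p = 0.993). Ube2q1 gave -0.43, -0.30, -0.013 and 0.012 at 192 h, a fitted -0.18 (SE 0.12, n = 4, adjusted p = 1.00). For Ube2w and Ube2t the value at 18 h thus follows 1 replicate. That replicate of Ube2w averages 2.22 and -0.056 on its arrays, and that of Ube2t rests on 1 array. The other 4 tested enzymes, Ube2h, Ube2o, Ube2r2 and Ube2s, had fitted values between -0.13 and 0.12 over the 3 times. Ube2cbp, the ligase caught by its symbol, gave -0.13, -0.16, -0.12 and -0.28 in 18 h replicates 2 to 5 and 1.32, 0.069 and 0.089 in 192 h replicates 2 to 4, with the F-test between times at an adjusted p of 0.898. The 1.32 averages 0.37 and 2.26 on its arrays, both with tumour RNA in Cy3.

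Of the deubiquitinases, Usp20, which acts on targets of the von Hippel-Lindau ligase, had the smallest p at 72 h and for the mean of the times. It gave -0.26, -0.14, -0.070 and -0.11 in 18 h replicates 2 to 5, -0.79 and -0.15 at 72 h, and 0.061, 0.11, 0.16 and -0.061 at 192 h. It was below 0 in every replicate at 18 and 72 h and above 0 in 3 of 4 at 192 h. The fitted values were -0.14 (SE 0.12, adjusted p = 0.928) at 18 h and -0.47 (SE 0.16, unadjusted p = 0.0132, adjusted p = 0.535) at 72 h. At 192 h the value was 0.068 (SE 0.11, adjusted p = 1.00). The mean of the times was -0.18 (SE 0.076, adjusted p = 0.859), the only member of 51 with an unadjusted p under 0.05 for it, where 5.54% of all probes had one and 0% of all probes passed with adjustment.

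The arrays of Usp20 at 72 h disagreed. Replicate 3 gave -0.19 with tumour RNA in Cy5 and -1.39 with it in Cy3, on array 447, and replicate 4 gave -0.62 and 0.32. Without array 447 the fitted value at 72 h was -0.18 (adjusted p = 0.993). Without replicate 4 it was -0.79 (adjusted p = 0.033), with replicate 3 then the only one at that time, and without replicate 3 it was -0.15.

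**Figure D3:**
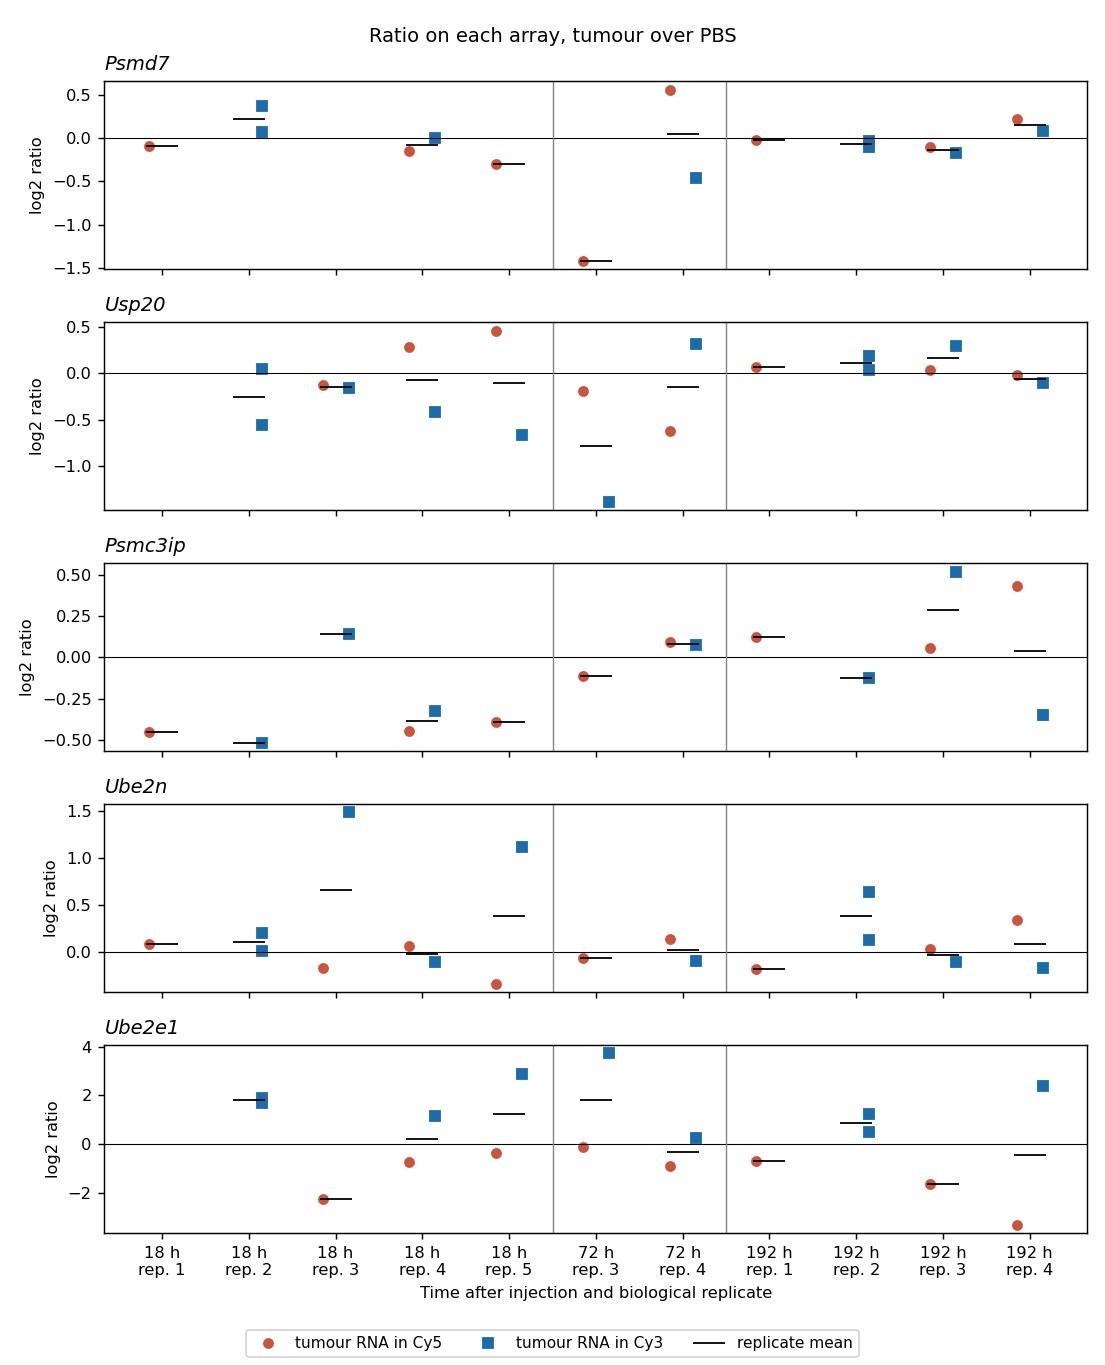
Log2 ratio of tumour over PBS on each array for Psmd7, Usp20, Psmc3ip, Ube2n and Ube2e1, by time and replicate, with circles for tumour RNA in Cy5, squares for tumour RNA in Cy3 and bars for replicate means. Ube2e1 has all circles below 0 and all squares above 0, and the replicate 3 value of Psmd7 at 72 h rests on 1 circle at -1.42.

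Usp25 was above 0 in all 4 measured replicates at 18 h, at 0.14, 0.11, 0.17 and 0.19, and below 0 in all 4 at 192 h, at -0.32, -0.097, -0.029 and -0.49. At 72 h it gave 0.069 and -0.33. The fitted value was 0.13 (SE 0.11) at 18 h and -0.23 (SE 0.11, unadjusted p = 0.0535, adjusted p = 1.00) at 192 h, and the F-test between times gave an adjusted p of 0.898. Every replicate of one time lay on the other side of 0 from every replicate of another in 4 of 51 members, Usp25, Ube2a, Ube2cbp and the second probe of Cul5 (7.84%, against 4.96% of all probes). For the F-test, 0 of 51 members passed, with 0% of all probes, and 0 had an unadjusted p under 0.05, with 3.57% of all probes.

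Usp14, which docks on the proteasome and trims ubiquitin from its substrates, gave 0.018, 0.12, 0.12, -0.27 and 0.054 at 18 h, 0.56 and -0.013 at 72 h, and -0.010, -0.023, 0.10 and 0.12 at 192 h. Its highest value, in 72 h replicate 3, is the mean of 0.097 on array 445 and 1.02 on array 447. The fitted value at 72 h was 0.27 (SE 0.16, n = 2, adjusted p = 0.635), and without array 447 it was 0.045 (adjusted p = 0.993). Usp9x, an X-linked enzyme expressed in neurons, was below 0 in 9 of 10 replicates, at -0.048, -0.15, -0.21 and -0.30 in 18 h replicates 2 to 5, -0.12 and -0.048 at 72 h, and 0.024, -0.40, -0.021 and -0.17 at 192 h. Its mean over the times was -0.13 (SE 0.066, adjusted p = 0.859). In 18 h replicates 3 and 5 and 72 h replicate 3, Usp9x rests on a single array each, with tumour RNA in Cy5. With tumour RNA in Cy5 and in Cy3 its arrays gave 0.042 and -0.46 in 18 h replicate 4. In 72 h replicate 4 they gave -0.34 and 0.25.

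Usp19, an enzyme of the endoplasmic reticulum, had a fitted -0.21 at 18 h (SE 0.10, n = 4, adjusted p = 0.874), from -0.21, -0.51, -0.12 and 0.0058. Usp11 had 0.23 at 18 h (SE 0.15, n = 4, adjusted p = 0.924), led by 0.82 in replicate 5, and Usp12 had 0.18 (SE 0.11, n = 5, adjusted p = 0.908), led by 0.56 in replicate 3. In 18 h replicate 5 Usp11 was -0.011 with tumour RNA in Cy5 and 1.65 with it in Cy3, and Usp12 was -1.30 and 1.91. Replicate 3 of Usp12 at 18 h rests on 1 array, with tumour RNA in Cy3. Usp24 had 0.24 at 192 h (SE 0.14, n = 4, adjusted p = 1.00), from -0.065, 0.49, -0.16 and 0.68. Its replicate 3 there rests on 1 array with tumour RNA in Cy5 and its replicate 4 on 1 with it in Cy3, though the fit counts both as balanced. All its 192 h arrays with tumour RNA in Cy5 were below 0 (-0.065 and -0.16). Those with it in Cy3 were all above 0 (0.29, 0.68 and 0.68). Usp18, which removes the interferon-induced modifier Isg15 and is itself induced by interferon, was too dim to be tested and is given here because of that role, chosen after its values were seen. It gave -0.62, 0.011 and 0.30 in 18 h replicates 3 to 5, -0.18 and 0.33 at 72 h, and 0.40, -0.12, 0.076 and -0.30 at 192 h, on both sides of 0 at each time. Isg15 itself had a fitted -0.10 at 18 h (adjusted p = 0.961). It had -0.34 at 72 h (adjusted p = 0.655) and -0.28 at 192 h (adjusted p = 1.00).

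Cullins are scaffolds that hold a substrate receptor and a conjugating enzyme together. Cul3, which takes BTB-domain adaptors, gave 0.16, -0.033, 0.12, 0.025 and -0.048 at 18 h, -0.054 and -0.080 at 72 h, and -0.064, 0.13 and -0.16 in 192 h replicates 1, 2 and 4. All these replicate means lay within 0.2 of 0, and the residual SD of Cul3 was 0.11. Its single arrays spread further. With tumour RNA in Cy5 and in Cy3 they gave -0.49 and 0.54 in 18 h replicate 4, and -0.75 and 0.44 in 192 h replicate 4. In 18 h replicate 5 they gave -0.012 and -0.083. Cul2, the scaffold of the von Hippel-Lindau ligase, had -0.31 and -0.026 at 72 h, a fitted -0.17 (SE 0.14, n = 2, adjusted p = 0.748). Replicate 3 of Cul2 was 0.087 on array 445 and -0.71 on array 447, and without array 447 the fitted value turned to 0.068 (adjusted p = 0.993). Cul7 gave 0.17, -0.38, 0.28, 0.31 and 0.29 at 18 h, with replicate 2 alone below 0, a fitted 0.13 (SE 0.12, n = 5, adjusted p = 0.928), and 0.28, -0.13, 0.013 and -0.61 at 192 h.

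Cul5, which takes SOCS-box adaptors, was measured by 2 probes that disagreed. The first (AK014894) gave -0.58 and 0.0084 at 72 h and the second (AK018437) 0.41 and 0.11, with fitted values of -0.29 (SE 0.18, adjusted p = 0.669) and 0.26 (SE 0.19, adjusted p = 0.708). In replicate 3 the first probe gave -0.15 on array 445 and -1.02 on array 447. Without array 447 its fitted value was 0.026, and that of the second probe 0.42 (adjusted p = 0.995 and 0.993). Both include a dye correction of replicate 3. The values left at 72 h were -0.15 and 0.0084 for the first probe and 0.60 and 0.11 for the second. Over the 9 replicates that both measured, the signs were the same in 5. Cul4a had too few values to be tested.

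**Figure D4:**
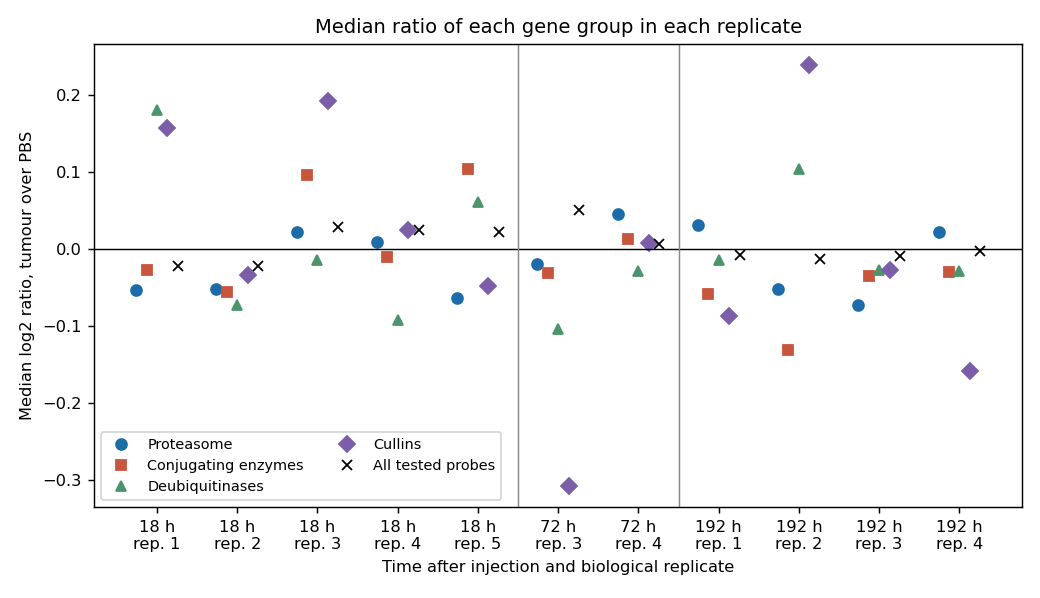
Median log2 ratio of tumour over PBS in each biological replicate for the proteasome probes, conjugating enzymes, deubiquitinases and cullins, with crosses for the median of all tested probes. Every proteasome median lies between -0.073 and 0.045, and the few cullin probes range from -0.31 in 72 h replicate 3 to 0.24 in 192 h replicate 2.

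By group, the replicate medians had 1 sign in every replicate of a time in a pair of cases, the conjugating enzymes at 192 h and the deubiquitinases at 72 h, both below 0. The proteasome medians were -0.053, -0.052, 0.022, 0.0095 and -0.063 in the 18 h replicates, -0.020 and 0.045 at 72 h, and 0.031, -0.052, -0.073 and 0.023 at 192 h, on both sides of 0 at each time. The conjugating enzymes had -0.058, -0.13, -0.034 and -0.030 at 192 h, and lay on both sides of 0 at 18 and 72 h, up to 0.10. The deubiquitinases had -0.10 and -0.029 at 72 h and reached 0.18 in 18 h replicate 1. The medians of all tested probes were also below 0 in the 4 replicates of 192 h, from -0.012 to -0.0029. The cullin medians rest on 3 to 5 probes each.

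Other genes of the pathway were described in the same way. From 5 lists chosen by textbook role, of ubiquitin and activating enzymes, cullin partners, other ligases, other deubiquitinases, and shuttles and unfolding factors, 93 genes were on the arrays and 71 were tested with 74 probes. At each time 0 of 74 passed in either direction, where 0% of all probes passed. An unadjusted p under 0.05 was found for 7 of 74 at 18 h, with 5.36% of all probes. It was found for 6 at 72 h, with 8.68% of all probes, and for 0 at 192 h, with 0.996%. The list medians lay between -0.058 and 0.042 at 18 h and between -0.092 and 0.056 at 72 h.

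The smallest p-values of these lists fell on ligases and a peptidase. Tpp2, a large peptidase that trims the products of the proteasome, was above 0 in all 5 replicates at 18 h, at 0.33, 0.47, 0.56, 0.071 and 0.84. Its fitted 0.46 (SE 0.12, unadjusted p = 0.0022) had the smallest p of all 4516 probes at that time, with an adjusted p of 0.874, and at 192 h its values lay on both sides of 0. Rnf187, a RING ligase, was below 0 in 4 of 5 replicates at 18 h and gave -0.69 and -0.63 at 72 h. Its fitted value at 72 h was -0.66 (SE 0.13, adjusted p = 0.272), against 0.052 (SE 0.095, adjusted p = 1.00) at 192 h. Mkrn2, another RING ligase, gave -0.29, -0.50, -0.24 and -0.98 in 18 h replicates 1, 2, 4 and 5, a fitted -0.50 (SE 0.13, adjusted p = 0.874). Cbl, a ligase for receptor tyrosine kinases, had 2.18 at 72 h (SE 0.74, adjusted p = 0.535), from 4.27 in replicate 3, which holds array 447, and 0.086 in replicate 4.

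Fbxw7, the substrate receptor of a cullin ligase, had 0.24 at 18 h (SE 0.094, adjusted p = 0.874), and Sae1, a subunit of the SUMO-activating enzyme, had 0.21 (SE 0.09, adjusted p = 0.874). Elob, a partner of Cul2 and Cul5, had 0.40 at 72 h (SE 0.18, adjusted p = 0.566), from 0.74 and 0.065. The 2 probes of Zfand5 gave 0.43 and -0.092 at 18 h. Uchl1, the abundant neuronal ubiquitin hydrolase, had 0.086 at 18 h, 0.19 at 72 h and -0.13 at 192 h, with adjusted p-values of 0.961, 0.831 and 1.00. Vcp, the segregase that extracts ubiquitylated proteins, had -0.52 at 192 h (SE 0.26, adjusted p = 1.00), led by -1.85 in replicate 4.

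The dye orientation was a term of the fit. For that term of the fit, 0 of 51 members passed, where 0.753% of all probes did. At an unadjusted p under 0.05 there were 4 members, with 13.7% of all probes. The lowest adjusted p by limma was 0.196, for Usp54, at 0.35 (SE 0.11), and Ube2cbp had the largest size among these 4, at -0.61. The term of Ube2cbp rests on replicate 2 alone, since replicate 1 had no value. Of its 4 dye-swapped replicates with both arrays, 1 had ratios of opposite sign. A fit over arrays, which uses the orientation of every array, passed 1 of 51 members by limma, at an adjusted p of 0.00088. It passed 124 of all 4516 probes. The signs on dye-swapped arrays were compared for the 48 members with values on both arrays of several dye-swapped replicates. In 29 of them (60.4%, against 59.3% of all such probes), most of those replicates had ratios of opposite sign on their arrays.

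The 19 probes that were not tested were left out because 7 had too few values, 2 were dim and 10 were both. Their 149 replicate values ran from -1.03 to 0.82, with a median of 0.0085. The deubiquitinases lost most, with 9 of 21 probes, against 5 of 27 for the proteasome, 4 of 16 for the conjugating enzymes and 1 of 6 for the cullins.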

How the data were processed

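The deposited scanner files hold spot intensity per channel with the background already subtracted, and the background beside it, per the file headers; several scans exist per array. The authors' deposited series matrix holds a score read as a log ratio of tumour over PBS, since its signs follow the labelled dyes (r 0.580 to 0.875 with the scanner ratios), of unsettled base; it served as an alternative. The scanner and normalization software are not given in the sources used here.

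With limma 3.58.1 (R 4.3.3), each scan's log2 ratios were loess-normalized (span 0.3, 4 iterations), turned to tumour over PBS and averaged over scans, spots and arrays of a replicate. A filter removed the dimmest 33.3% of probes, and values were required in 3 replicates at 18 and 192 h and in 2 at 72 h, which left 4516 probes for 4432 genes. A mean per time and a dye term were fitted by least squares with limma's variance moderation (7 residual and 4.60 prior degrees of freedom), and p-values were adjusted by Benjamini and Hochberg over all probes at 0.05. The fit was tested on simulated data. Of 28 arrays, 7 numbered below 309 were left out because spot brightness did not follow the annotation (Spearman rho 0.072 and 0.20 by gene on their 2 designs, against 0.65 to 0.74 on the other 3). Arrays carry no counts, and their number limits the precision.

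Members and gene lists were chosen with earlier results of these data known. Members named in the text are, by rule, up to 3 of each group with the smallest p at each time, up to 2 for the mean and the F-test, the 2 with the largest dye term, all tested cullins and a list of known genes; Psma5, Psmb2, Psmb3, Psmc3, Psmc5, Psmd2, Psmd4, Psmd6, Psmd13, Usp18 and Ube2h, Ube2o, Ube2r2 and Ube2s fall outside it and were added after values were seen. Of each pathway list, up to 2 genes with the smallest p at each time could be named. All symbols of the 70 member accessions matched the RefSeq table. Figures were drawn with matplotlib 3.10.9. Alternatives varied normalization, background, filters, dye term, scans, arrays, RNA kind and replicates.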

Additional observations from a re-analysis of the deposited data

Results flagged for a closer look

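Values of single replicates that stood apart from the others of the same gene and time were marked by a test of the gap between the end value and its neighbour. Over all tested members it marked 7 of 97 groups of 4 or 5 replicates (7.22%), against 6.41% of the groups of all probes, where chance marks about 1 in 20. All 7 were among the members named for small p-values or by list, and 1 median of a gene group was marked as well. At 18 h these were Ube2k in replicate 2, at -0.54 against -0.046 to 0.12 in the others, Cul7 in replicate 2, at -0.38 against 0.17 to 0.31, Usp14 in replicate 4, at -0.27 against 0.018 to 0.12, and Psmc3ip in replicate 3, at 0.14 against -0.52 to -0.38. At 192 h they were Ube2a in replicate 2, at -0.34 against -0.058 to -0.035, Usp11 in replicate 3, at 0.13 against -0.070 to -0.042, and 1 probe of Psmg3 in replicate 2, at 0.52 against -0.031 to 0.037. The median of the deubiquitinases at 192 h was 0.10 in replicate 2, against -0.029 to -0.014 in the others. Of these 8 values, 5 came from replicate 2, in which tumour RNA was only in Cy3. The part of the dye in them was not tested.

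In 4 of 51 members (7.84%, against 4.96% of all probes) every replicate of one time lay on the other side of 0 from every replicate of another. Usp25 was lower at 192 h than at 18 h by a fitted difference of -0.37, and Ube2cbp was higher at 192 h than at 18 h by 0.61. Ube2a was lower at 192 h than at 72 h by -0.18, and the second probe of Cul5 was higher at 72 h than at 18 h by 0.45. Of all probes, 2.28% lay so between 72 and 18 h, 0.487% between 192 and 18 h and 2.79% between 192 and 72 h. The F-test between the 3 times passed for none of these members by limma, with adjusted p-values of 0.898 for Usp25, Ube2cbp and Cul5 and 0.924 for Ube2a. Ube2cbp had no value in replicate 1, so replicate 2 alone sets its dye term. Its fitted -0.33 at 18 h lay below every replicate there, and replicate 2 led its values at 192 h. Ube2a was above 0 on 7 of 9 arrays with tumour RNA in Cy5 and on 1 of 9 with it in Cy3.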

How the results depend on the processing

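With the settings varied one at a time, no member passed at 18 or 192 h in any of the 28 alternatives run. At 72 h only the fit without replicate 4 passed any, 2 members (Psmd7 and Usp20), in a fit that assumes the remaining replicate varies like the others. The same fit passed 1 member for the mean of the times and 1 between times. For the dye term, 5 members passed with median centring and 1 in the fit over arrays. Counts of all probes at an adjusted p under 0.05 at 72 h, 0 in the fit reported, were 3 with median centring in place of loess, 3 with no background taken off, 2 with total RNA replicates alone and 1 with all 28 arrays. Leaving out 1 replicate in turn gave 0 to 293 at 72 h, 0 to 154 for the mean of the times, 0 to 135 between times and 0 to 54 for the dye term, the highest of each without 72 h replicate 4. For the dye term, 34 in the fit reported, other counts were 987 with median centring, 107 with no background taken off, 124 in the fit over arrays with the replicate as a random block, 9 without array 447, 19 with the first scan only, 3 with all 28 arrays, 55 with the authors' series matrix and 9 with probes measured in every replicate. The replicate block gave 3 probes at 72 h, 2 for the mean of the times and a member median of -0.046 at 192 h. Replicates sharing a number correlated at -0.13 to 0.33, over 0.1 in 5 of 8 pairs, against -0.31 to 0.18 and 8 of 30 pairs for different numbers. Each correlation with 72 h replicate 3 was the negative of that with 72 h replicate 4, so these pairs are not separate. The highest pairs of a shared number, at 0.33 and 0.18, also shared polyA RNA and a dye orientation. The correlations therefore cannot decide whether the numbers pair the samples. With not every pair over 0.1, the numbers were not taken to do so.

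The median log2 ratio of the members at 18 h was 0.046 with median centring, and ran from -0.041 to -0.0052 with 1 replicate left out, and the median log2 ratio of the members at 72 h from -0.068 to 0.020. The median log2 ratio of the members at 192 h, reported as -0.029, was -0.0056 with median centring, -0.047 with the dimmest 50% left out, 0.00017 with total RNA replicates alone, -0.012 with polyA replicates alone, -0.012 with the authors' series matrix and -0.012 with probes measured in every replicate. It ran from -0.038 to 0.0056 with 1 replicate left out, and was -0.00091 with only values from both orientations, a setting chosen after seeing the data. Of 2685 values of named members under the alternatives, 2583 moved by less than the SD between replicates, 100 moved by more, and 2 passed the test, both without 72 h replicate 4. The sign changed in 218, of which 45 had been further than 0.1 from 0. PolyA replicates alone gave no value at 72 h.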
